A study of Homo sapiens with 6 samples.

Results

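Transcript levels were compared between genotypes during an inflammatory stimulus in HaCaT cells, an immortalized line of human skin keratinocytes. The comparison set 2 libraries of MAPK14-null cells (p38α knockout) against 2 libraries of wild-type cells, all harvested after 4 h with IL-1α in PBS. Genes entered when at least 1 of these 4 libraries reached 1 RPKM (mapped reads scaled to exon length and library depth), and a difference was called non-overlapping when both knockout values lay above, or both below, the pair of wild-type values. The rule took 4 of the 6 libraries and 12603 of 27945 listed genes. The remaining 2 libraries, 1 of each genotype, received PBS alone for 4 h and are set beside the results as the unstimulated pair. All cells grew in DMEM with 10% FBS, and RNA was sequenced in bulk from stranded mRNA libraries. No label describes the edit in MAPK14, names a clone or states that the libraries of a group were separate cultures, so p-values measure only the spread between these samples, which may be technical.

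IL-1α is an alarmin that injured keratinocytes release. Bound to its receptor IL1R1, it activates NF-κB and the MAP kinase cascades, including p38α, the stress kinase encoded by MAPK14. Through its downstream kinases p38α is known to prolong the life of unstable inflammatory mRNAs and to act on transcription factors that include AP-1 members. In epidermis this response calls in neutrophils through CXC chemokines and accompanies changes in keratins and in precursors of the cornified envelope, the protein shell of the outermost cells.

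The 4 libraries held 16296118 to 29770402 reads, as recovered from the steps of the low values, and 80.1% to 81.0% of these lay in exons. The keratinocyte identity was clear in each of them, with 12 of 12 keratinocyte markers at 1 RPKM or more. Their summed level was 4178 and 4722 RPKM in wild type against 3040 and 3303 RPKM in knockout, and the part of this gap in the results below was not tested. Of the markers of other cells, fibroblast genes summed to 1.23 to 2.37 RPKM, CD68 was the sole leukocyte gene of 10 at 1 RPKM or more in any of the 4 libraries, and CDH5 and MITF were the sole such genes of the endothelial and melanocyte lists. The wild-type libraries resembled each other more closely (Pearson r = 0.985 across 12603 genes) than the knockout libraries did (0.967). Of genes reaching 5 RPKM, 29 of 8417 lay 2-fold or more apart within the wild-type pair and 257 of 8802 within the knockout pair. Knockout replicate 1 stood closer to the unstimulated knockout library (0.982) than to its own replicate, while knockout replicate 2 correlated with that library at 0.959.

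**Figure D1:**
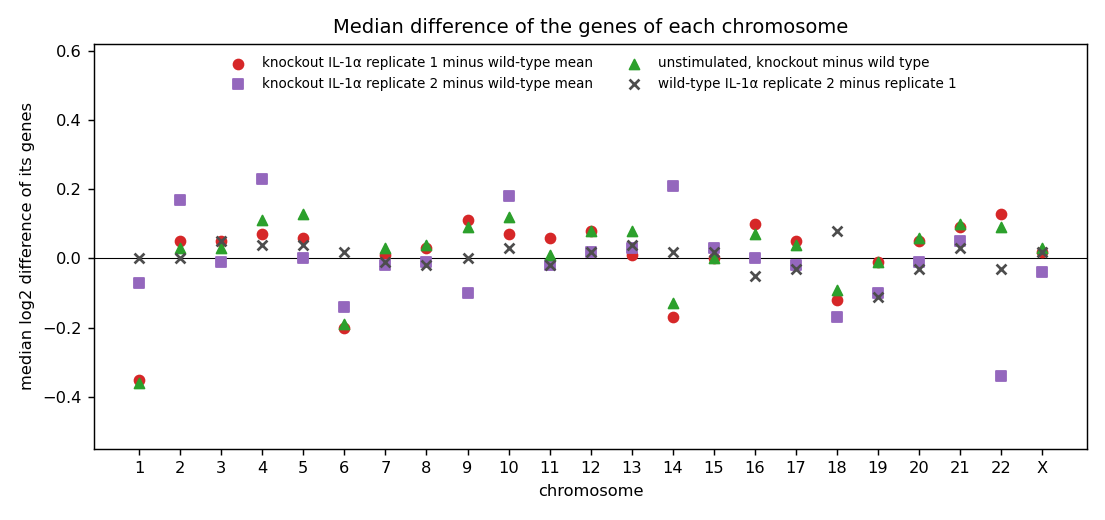
Median log2 difference of the genes on each chromosome (vertical axis, log2 units, genes averaging 3 RPKM or more, each library centred) for the 2 knockout IL-1α libraries, for the unstimulated genotype pair and for the wild-type IL-1α pair. Knockout replicate 1 and the unstimulated knockout library lie together at -0.35 and -0.36 on chromosome 1, where knockout replicate 2 lies at -0.07.

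The knockout libraries also differed in the medians of some chromosomes, as the plot of chromosome medians shows. Genes of chromosome 1 had a median of -0.35 against the wild-type mean in knockout replicate 1, of -0.07 in knockout replicate 2 and of -0.36 in the unstimulated pair. On chromosome 14 the medians were -0.17, 0.21 and -0.13, and on chromosome 22 they were 0.13, -0.34 and 0.09, in the same order. Replicate 2 thus stood apart from both other knockout libraries on these chromosomes, whereas the medians between the wild-type replicates stayed between -0.11 and 0.08 on every chromosome. With chromosomes cut into stretches, the medians of replicate 2 ran from 0.17 to 0.31 on chromosome 14. On chromosome 22 they ran from -0.45 to 0.30, so its shift was not even along the chromosome. A single median per chromosome does not capture such differences. The part of these shifts in single-gene results was not tested beyond a fit with chromosome medians removed, in which 23 genes were higher and 42 lower in knockout, an alternative chosen after seeing the data.

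MAPK14 itself (chromosome 6, 35995454 to 36079013, hg19) was read at 13.3 and 14.8 RPKM in wild type against 11 and 7.41 RPKM in knockout. The groups did not overlap, but the transcript was present in each knockout library. Its log2 difference, knockout minus wild type, was -0.61 ± 0.22 (SE) and missed the threshold (limma, adjusted p = 0.258). Since the value covers all exons, it cannot show a frameshift or a short deletion. Genes of chromosome 6 had a median of -0.20 in knockout replicate 1, -0.14 in knockout replicate 2 and -0.19 in the unstimulated pair. Stretches of this chromosome had medians from -0.40 to -0.07 in replicate 1 and from -0.53 to 0.04 in replicate 2. The part of this shift in the MAPK14 value was not tested beyond the fit with chromosome medians removed. MAPK11, the gene of p38β, read 2 and 1.44 RPKM in wild type against 3.07 and 2.66 RPKM in knockout (0.61, adjusted p = 0.3). MAPK12, which encodes p38γ, differed by 0.35 (adjusted p = 0.464) and MAPK13, which encodes p38δ, by 0.02 with overlapping libraries (adjusted p = 0.973). MAP2K6, a kinase that activates p38, read 0.430 and 0.524 RPKM in wild type against 3.15 and 1.79 RPKM in knockout. Both knockout libraries were higher, as was the unstimulated knockout library (3.87 against 0.612 RPKM), although the test was not passed (1.57 ± 0.33, adjusted p = 0.107). Over all genes of the rule, 32.5% were non-overlapping and higher and 16.4% lower, with a median of 0.09. Of the 19 p38 kinases and relays, 10 were non-overlapping and higher and 2 lower, with a median of 0.25. Under the other scalings 6 to 9 were non-overlapping and higher. No member passed limma, 5 higher and 1 lower had an unadjusted p below 0.05, and none passed voom, a form of limma run on rebuilt reads.

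Across all 12603 genes, 31 were higher in knockout (0.246%) and 47 lower (0.373%) at an adjusted p below 0.05 in limma, 78 in all (0.619%). Non-overlap alone held for 48.9% of genes, 4100 higher (32.5%) and 2064 lower (16.4%), so it separates little by itself. The counts of non-overlapping members of a list are to be read beside these shares. A stricter count asked that the nearest libraries of the 2 genotypes lie at least 2-fold apart with 0.5 RPKM added, which 57 genes met with higher knockout values (0.452%) and 70 with lower ones (0.555%), 1.01% of all genes. At a 4-fold distance 4 and 14 genes remained. Just inside the 2-fold line lay NAP1L2 (2.01-fold, higher) and CHAC1 (2.02-fold, lower), and just outside it PECR (1.99-fold, higher) and SERPINB1 (1.99-fold, lower). At the limma threshold AQP3 (adjusted p = 0.0499) was just inside and H19 (0.0508) just outside. The median difference over all genes was 0.09, and it was -0.00 after median-of-ratios rescaling. That rescaling left 17 higher and 51 lower genes, so higher genes made up 25% of the calls in place of 39.7%, and 50.2% in place of 66.5% of the non-overlapping genes. Quantile normalization left 13 and 40 genes (24.5% higher) and removing the length trend 16 and 38 (29.6% higher).

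These calls rest on few samples. With 2 against 2 libraries an exact permutation test cannot give less than p = 0.333 for a gene, so the calls lean on variance shared across genes. Without wild-type replicate 1, wild-type replicate 2 or knockout replicate 2, 0 genes passed limma, with 583, 1106 and 2127 genes at an unadjusted p below 0.05. Without knockout replicate 1, 14 passed as higher and 30 as lower. Under voom the calls of APOBEC3A, AQP3, EMP1, KRT13, LAMB1, MIR6824, MMP7, S100A9, SERPINB1, SERPINB13 and SPRR3 were lost among the genes named here.

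**Figure D2:**
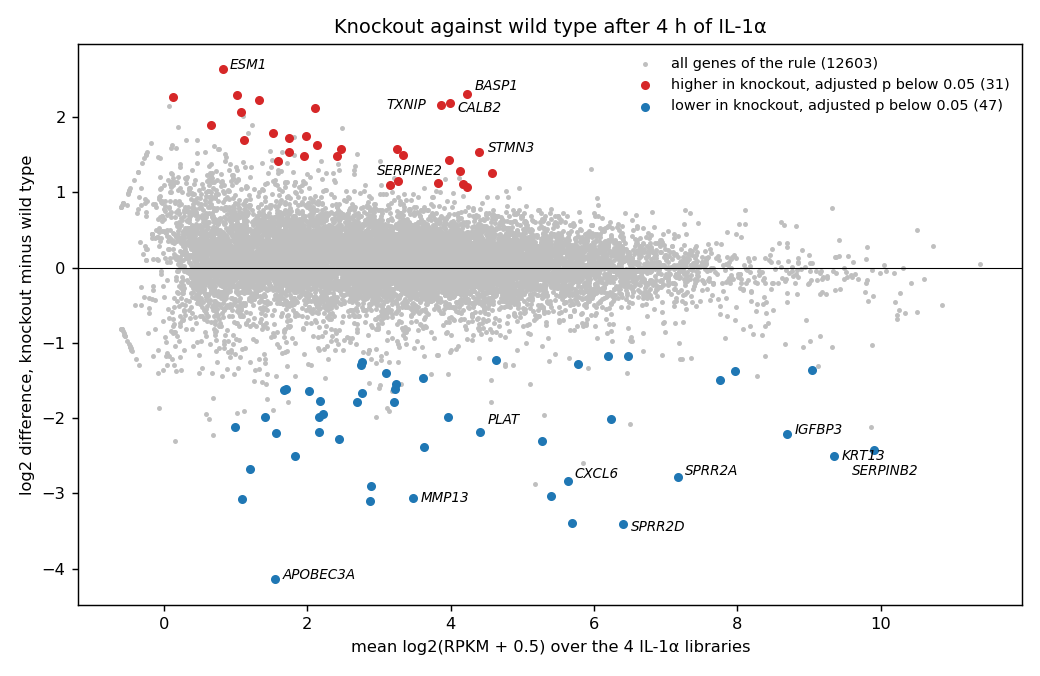
Log2 difference between knockout and wild type (vertical axis) against mean level, log2(RPKM + 0.5), over the 4 IL-1α libraries (horizontal axis), 1 point a gene. The 47 lower genes that passed reach the highest levels, with SERPINB2 and KRT13 at the right, while the 31 higher genes lie at low to middle levels.

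The lower genes were the more abundant, as the plot of difference against level shows. The median of the higher group mean was 19.9 RPKM for the 47 lower genes and 8.63 RPKM for the 31 higher ones. Their median transcript lengths were 1800 and 3439 bases. With genes averaging 3 RPKM or more split into 10 bins by length, the median difference was -0.04 in the shortest bin and 0.17 in the longest.

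Small proline-rich proteins, precursors that transglutaminases link into the cornified envelope, formed the list with the lowest median of the 45 lists described here. All 8 members that reached the rule, of 11 listed and including the pseudogene SPRR2C, were non-overlapping and lower in knockout. Of these, 7 had nearest libraries 2-fold apart and 5 passed limma. The list had a median log2 difference of -2.83, against 0.09 over all genes, and a range of -3.40 to -1.73. SPRR2A (chromosome 1, 153028596 to 153029988, minus strand, hg19) read 483 and 295 RPKM in wild type against 58.5 and 50.6 RPKM in knockout, or 389 ± 133 and 54.5 ± 5.62 (mean ± SD, n = 2 each). Both knockout libraries were far below both wild-type libraries, the nearest being 5.01-fold apart. Its log2 difference was -2.78 ± 0.25 (SE; limma, adjusted p = 0.00915). SPRR2D read 369 and 206 RPKM in wild type against 26.8 and 24.6 RPKM in knockout (-3.40, adjusted p = 0.00701). SPRR2E (-3.39, adjusted p = 0.0218), SPRR2F (-3.03, adjusted p = 0.0179) and SPRR3 (-2.12, adjusted p = 0.044) passed too.

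The remaining members, SPRR1A, SPRR1B and SPRR2C, had lower values without passing the test. SPRR1A read 128 and 73.5 RPKM in wild type but 34.3 and 4.59 RPKM in knockout (-2.87, adjusted p = 0.157), so knockout replicate 2 was much the lower of the pair. SPRR1B (186, 106, 41.7 and 12.4 RPKM in the same order) did likewise (-2.59, adjusted p = 0.0938), and SPRR2C read 3.72, 1.52, 0.541 and 0.248 RPKM (-1.73, adjusted p = 0.138). Knockout transcripts of the family were scarce without stimulation as well, but so were those of wild type: with PBS alone SPRR2A stood at 4.80 RPKM in wild type against 1.10 RPKM in knockout, and SPRR2F was listed at 0 in both. The genes lie on chromosome 1, with a median of -0.35 in knockout replicate 1, and with chromosome medians removed the list's median was -2.61. Its median was -3.45 without knockout replicate 1 and -2.45 without replicate 2. Members of the SPRR2 group are near copies of each other, so reads may be shared among them and their separate values are uncertain.

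The promoters of SPRR2A and SPRR2F, 250 bases before to 50 after the RefSeq transcription start, are printed because their list had the lowest median and because these 2 genes share 3 motifs at nearly the same distances. SPRR2A lies at chr1:153057463-153057762 and SPRR2F at chr1:153113467-153113766 (GRCh38.p14, minus strand). Capitals mark, in order, an AP-1 motif (TGANTCA), in SPRR2F also a match to the κB consensus, an octamer (ATTTGCAT) and a TATA motif (TATAAA).
SPRR2A: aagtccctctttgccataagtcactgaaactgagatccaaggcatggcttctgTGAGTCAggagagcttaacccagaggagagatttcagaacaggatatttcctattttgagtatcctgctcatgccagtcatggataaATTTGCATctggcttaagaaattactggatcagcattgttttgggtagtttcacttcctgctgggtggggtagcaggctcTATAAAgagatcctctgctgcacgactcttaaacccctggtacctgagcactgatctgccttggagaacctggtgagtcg
SPRR2F: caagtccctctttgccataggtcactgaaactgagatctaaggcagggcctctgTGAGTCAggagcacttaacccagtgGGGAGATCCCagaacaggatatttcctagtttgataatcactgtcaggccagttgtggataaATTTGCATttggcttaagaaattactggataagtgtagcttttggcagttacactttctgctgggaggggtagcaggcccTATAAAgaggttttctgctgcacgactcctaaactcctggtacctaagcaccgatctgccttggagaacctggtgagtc
In SPRR2A the AP-1 letters begin 197 bases, the octamer 110 bases and the TATA letters 30 bases upstream of the start. In SPRR2F they begin 196, 109 and 29 bases upstream, and the κB letters 171 bases upstream.

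Other genes of the envelope were less uniform. Of the 11 members that reached the rule, 2 were non-overlapping and higher and 3 lower (32.5% and 16.4% over all genes), with a median of -0.16. None passed limma or voom, with 1 higher and 3 lower members at an unadjusted p below 0.05. IVL (involucrin), an early scaffold of the envelope, read 71.4 and 84.0 RPKM in wild type against 29.7 and 12.7 RPKM in knockout (-1.96, adjusted p = 0.0729). TGM1, the membrane transglutaminase, differed by -1.09 (adjusted p = 0.0858) and SCEL (sciellin) by -0.79 (adjusted p = 0.115). IVL was also lower in the unstimulated knockout library, at 36.8 against 130 RPKM.

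Keratins, the intermediate filaments of epithelia, were mostly lower. Among basal and wound keratins 4 of 6 were non-overlapping and lower and 1 passed, with a median of -1.03. KRT16, a keratin of wounded and inflamed skin, read 12.9 and 10.5 RPKM in wild type against 3.43 and 3.21 RPKM in knockout (-1.67 ± 0.19, adjusted p = 0.0154). Among simple and suprabasal keratins 10 of 12 were non-overlapping and lower and 1 passed limma but none voom, with a median of -0.96 that was -0.53 without knockout replicate 2. KRT13, a keratin of non-cornifying stratified epithelia, read 1849 and 1302 RPKM in wild type against 419 and 179 RPKM in knockout (-2.50 ± 0.38, adjusted p = 0.0454). For both genes the genotypes were well apart, and the unstimulated knockout library was lower too, at 3.03 against 12.6 RPKM for KRT16 and 641 against 2535 RPKM for KRT13. Abundant KRT17 (2167, 1745, 747 and 267 RPKM) differed by -2.12 without passing (adjusted p = 0.1). KRT5, the basal keratin, and KRT6A, a wound keratin, both chosen after their values were seen, overlapped between genotypes (0.08 and -0.14). Keratin genes of a type resemble each other, so their separate values carry the same uncertainty as the SPRR2 group. KRTAP3-1, a hair keratin-associated protein gene, read 7.49 and 4.30 RPKM in wild type against 0.232 and 0.228 RPKM in knockout (-3.08, adjusted p = 0.0106).

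Chemokines that attract neutrophils were lower with 1 exception. Of 6 members, 5 were non-overlapping and lower, CXCL6 and CXCL5 passed limma, and the median was -1.21. CXCL6 (chromosome 4, 74702273 to 74704477, hg19) read 160 and 109 RPKM in wild type against 13.1 and 24.8 RPKM in knockout. No knockout value came near the wild-type values, the nearest being 4.34-fold apart (-2.84 ± 0.31, adjusted p = 0.0154). CXCL5, closely related to it, read 7.07 and 8.91 RPKM in wild type against 1.60 and 0.555 RPKM in knockout (-2.50 ± 0.33, adjusted p = 0.0299). The most abundant members did not pass. CXCL8, or interleukin-8, the classic neutrophil chemokine (chromosome 4, 74606223 to 74609433, hg19), read 286 and 212 RPKM in wild type against 79.6 and 144 RPKM in knockout (-1.20 ± 0.30, adjusted p = 0.142). CXCL1 differed by -1.21 (adjusted p = 0.213) and CXCL3 by -1.22 (adjusted p = 0.173), both non-overlapping. In these 3 genes knockout replicate 2 was the higher of its pair and the nearer to wild type. CXCL2, chosen after its values were seen, overlapped at 0.974, 0.856, 0.496 and 1.43 RPKM (-0.03). The list's median was -0.73 without knockout replicate 1 and -1.78 without replicate 2. CXCL1, CXCL2 and CXCL3 are near copies, so their separate values are uncertain.

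CXCL6 passed and CXCL8 did not, though both were non-overlapping and lower, and their promoters are printed to show the exact letters found in each. CXCL6 lies at chr4:73836428-73836727 and CXCL8 at chr4:73740319-73740618 (GRCh38.p14, plus strand).
CXCL6: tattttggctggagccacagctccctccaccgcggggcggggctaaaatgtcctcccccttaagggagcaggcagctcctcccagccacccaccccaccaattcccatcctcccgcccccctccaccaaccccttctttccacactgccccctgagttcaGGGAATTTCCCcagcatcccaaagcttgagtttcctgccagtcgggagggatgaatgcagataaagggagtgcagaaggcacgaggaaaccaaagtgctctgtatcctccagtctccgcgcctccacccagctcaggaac
CXCL8: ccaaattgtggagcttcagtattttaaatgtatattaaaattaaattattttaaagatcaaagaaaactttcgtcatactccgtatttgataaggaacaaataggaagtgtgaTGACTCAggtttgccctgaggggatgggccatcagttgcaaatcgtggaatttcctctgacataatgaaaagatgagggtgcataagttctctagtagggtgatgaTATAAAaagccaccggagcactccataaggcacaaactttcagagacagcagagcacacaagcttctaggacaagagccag
Capitals in CXCL6 mark 2 overlapping matches to the κB consensus that begin 90 and 89 bases upstream of the start, and capitals in CXCL8 mark AP-1 letters 137 bases and TATA letters 31 bases upstream. The strict κB consensus had no match in the CXCL8 window, which says only that those letters are not in it. That window does hold tggaatttcc, which departs from the consensus only in its first letter.

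Chemokines of other leukocytes did not share a direction. Of 8 members, 2 were non-overlapping and higher and 2 lower (32.5% and 16.4% over all genes), and the median was -0.20. CCL5, which attracts T cells and monocytes, read 33 and 28.4 RPKM in wild type against 9.55 and 5.65 RPKM in knockout (-1.98 ± 0.25, adjusted p = 0.0218). With PBS alone the gene held 0.928 RPKM in wild type against 1.17 RPKM in knockout, so both genotypes were low there. CXCL16 differed by -0.98 (adjusted p = 0.0876). CXCL10 (1.07, adjusted p = 0.197) and CXCL11 (1.06, adjusted p = 0.279), which attract activated T cells, had higher values in knockout at 3.66 RPKM or less. CCL2 and CCL20, chosen after their values were seen, overlapped. CCL2 read 201 and 172 RPKM in wild type against 206 and 8.87 RPKM in knockout, so its difference of -2.08 comes from replicate 2 alone and was 0.15 without it.

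**Figure D3:**
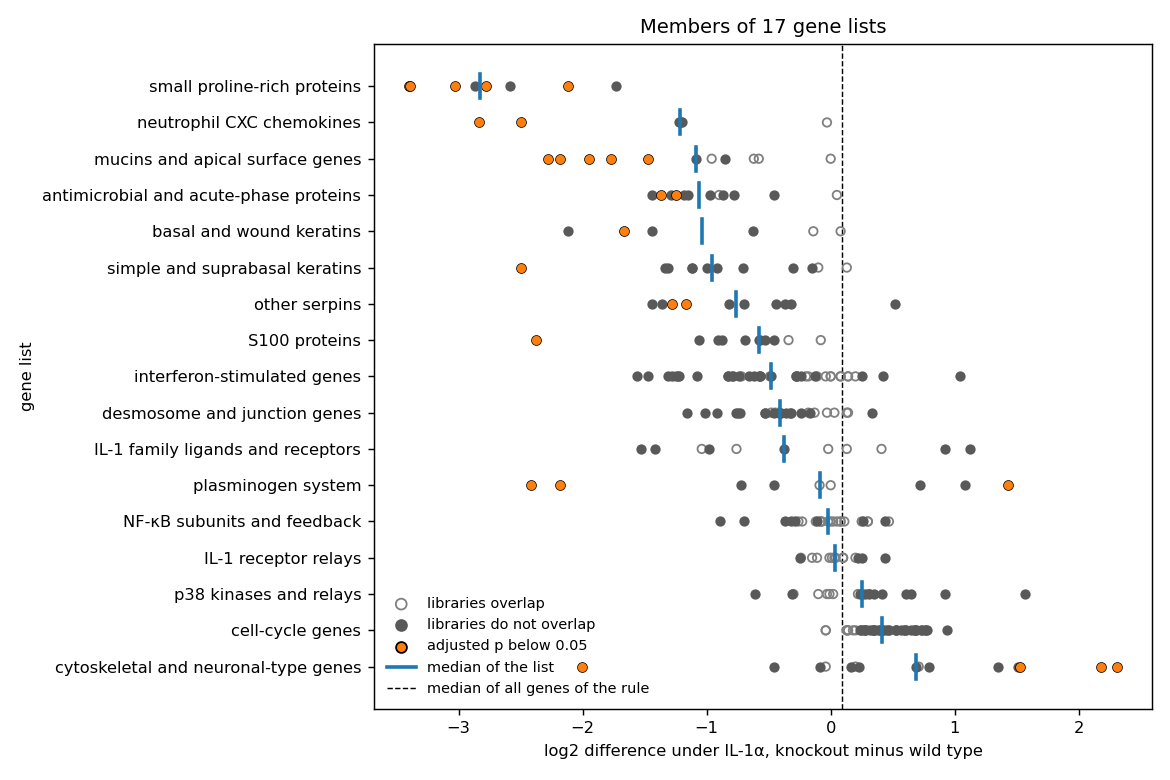
Log2 difference of each member of 17 gene lists (horizontal axis, knockout minus wild type under IL-1α), filled where the libraries do not overlap and orange where limma's adjusted p was below 0.05. All 8 small proline-rich genes lie at -1.73 or lower, and the cell-cycle list lies right of 0 except for 2 members.

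The IL-1 system itself had members in both directions, as the plot of list members shows. None of its 11 members passed limma or voom, with 2 higher and 3 lower members at an unadjusted p below 0.05. Of the 11, 2 were non-overlapping and higher and 4 lower, beside 32.5% higher and 16.4% lower over all genes. The list's median of -0.38 was -0.23 without wild-type replicate 1, -0.01 without knockout replicate 1 and -0.24 without knockout replicate 2. The signalling receptor IL1R1 read 12.1 and 11.5 RPKM in wild type against 2.76 and 5.06 RPKM in knockout (-1.53 ± 0.26, adjusted p = 0.0638). The decoy receptor IL1R2 (25.7, 17.4, 6.50 and 8.81 RPKM) differed by -1.42 (adjusted p = 0.0598), and the receptor antagonist IL1RN (145, 114, 64.8 and 65.0 RPKM) by -0.98 (adjusted p = 0.0858). These 3 were non-overlapping with lower knockout values, as was the cytokine IL18 (116, 94.1, 88.6 and 72.5 RPKM; -0.38, adjusted p = 0.388). The agonist IL1A read 13 and 10.9 RPKM in wild type against 21.7 and 32.5 RPKM in knockout (1.12, adjusted p = 0.1). Likewise IL1B, also an agonist, read 51.0, 44.2, 69.9 and 117 RPKM (0.92, adjusted p = 0.172), both non-overlapping with higher knockout values. The agonist, IL36G, chosen after its values were seen, overlapped between genotypes at 20.6, 11.1, 4.63 and 16.2 RPKM (-0.76, adjusted p = 0.518). The unstimulated pair had the same signs, with IL1R1 at -1.51, IL1A at 1.39 and IL1B at 1.24.

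Genes downstream of the receptor did not share a direction either. Of 14 IL-1 receptor relays 3 were non-overlapping and higher and 1 lower, beside 32.5% and 16.4% over all genes. Their median was 0.04, with a range of -0.25 to 0.44. With the length trend removed 2 were non-overlapping and higher and 6 lower (median -0.08). None passed limma or voom, and none had an unadjusted p below 0.05. Of 25 NF-κB subunits and feedback genes 2 were non-overlapping and higher and 6 lower (32.5% and 16.4% over all genes), with a median of -0.02. None of these passed limma or voom, and 2 lower members had an unadjusted p below 0.05. NFKBIA, the inhibitor of NF-κB (120, 95.1, 95.5 and 140 RPKM), and TNFAIP3, a ubiquitin-editing brake on the pathway (116, 104, 83.3 and 130 RPKM), both chosen after their values were seen, overlapped between genotypes. BIRC3, an inhibitor of apoptosis, differed by -0.70 (adjusted p = 0.137) and NFKBIZ, a co-activator of secondary targets, by -0.37 (adjusted p = 0.357).

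Cytokines beyond the chemokines gave a median of -0.02, with 4 of 15 non-overlapping and higher and 4 lower (32.5% and 16.4% over all genes). None passed limma or voom, with 1 higher and 3 lower members at an unadjusted p below 0.05. LIF, of the IL-6 family, read 44.7, 34.5, 20.8 and 8.74 RPKM (-1.50, adjusted p = 0.138), and TNFSF18 (GITR ligand) read 5.70, 5.59, 0.430 and 2.89 RPKM (-1.79, adjusted p = 0.189). CSF2 and IL6, chosen after their values were seen, differed by -0.05 with overlapping libraries and by 0.66 without overlap. PTGS2, the inducible cyclooxygenase that makes prostaglandin precursors, passed as lower, at 14.4 and 12.4 RPKM in wild type against 5.06 and 4.50 RPKM in knockout (-1.40 ± 0.18, adjusted p = 0.0249).

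Interferon-stimulated genes had lower values in many members. Of 40, 24 were non-overlapping and lower and 3 higher, with a median of -0.48, which was -0.24 without knockout replicate 2. No member passed limma or voom, while 16 lower and 2 higher members had an unadjusted p below 0.05. ISG20, an exonuclease, read 17.5 and 10.1 RPKM in wild type against 4.53 and 3.89 RPKM in knockout (-1.56, adjusted p = 0.0598). GBP1 (-1.47, adjusted p = 0.0841), SAMD9 (-1.31, adjusted p = 0.0769) and OAS1 (-1.28, adjusted p = 0.142) had differences of like size. Without stimulation the list's median was 0.05. The cytidine deaminase APOBEC3A (chromosome 22, 39353527 to 39359188, hg19) passed as lower, at 16.8 and 8.26 RPKM in wild type against 0.477 and 0 RPKM in knockout (-4.14 ± 0.41, adjusted p = 0.0106). It was nearly absent from both knockout libraries and stood at 1.12 RPKM and 0.0600 RPKM in the unstimulated wild-type and knockout libraries. Its neighbour APOBEC3B, a close relative with which reads may be shared, read 76.1, 59.4, 58.8 and 23.9 RPKM (-0.83, adjusted p = 0.344). Genes of chromosome 22 had a median of -0.34 in knockout replicate 2, with medians of its stretches from -0.45 to 0.30.

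Proteases and inhibitors of the plasminogen system, which cuts fibrin and matrix during re-epithelialization, had members that passed limma in both directions. Of 9 members 3 were non-overlapping and higher and 4 lower (32.5% and 16.4% over all genes), and 1 higher and 2 lower passed limma. SERPINB2 (plasminogen activator inhibitor 2; chromosome 18, 61554939 to 61571124, hg19) was among the most abundant mRNAs in wild type, at 2562 and 1917 RPKM, and read 349 and 491 RPKM in knockout (-2.42 ± 0.25, adjusted p = 0.0106). PLAT, the tissue-type activator, read 46.2 and 43.8 RPKM in wild type against 9.79 and 9.24 RPKM in knockout (-2.18 ± 0.16, adjusted p = 0.00616). Replicates were nearly equal in both genotypes, and the difference stayed between -2.22 and -2.14 with any 1 library left out. SERPINE2 (protease nexin 1) was higher, at 9.54 and 8.58 RPKM in wild type against 25.6 and 25.0 RPKM in knockout (1.43 ± 0.17, adjusted p = 0.0178). PLAUR, the urokinase receptor, differed by -0.72 (adjusted p = 0.182) without passing, and PLAU, the urokinase gene, chosen after its values were seen, overlapped (-0.09).

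The SERPINB2 promoter, at chr18:63887455-63887754 (GRCh38.p14, plus strand), is printed as that of the most abundant lower gene.
SERPINB2: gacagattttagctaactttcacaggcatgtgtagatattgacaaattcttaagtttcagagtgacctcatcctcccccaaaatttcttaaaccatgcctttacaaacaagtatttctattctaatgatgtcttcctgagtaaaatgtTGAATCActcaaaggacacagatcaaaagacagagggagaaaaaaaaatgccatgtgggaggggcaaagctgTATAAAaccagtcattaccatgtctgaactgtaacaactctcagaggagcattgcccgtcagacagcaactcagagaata
Capitals mark AP-1 letters that begin 102 bases and TATA letters that begin 30 bases upstream of the start.

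Among the other serpins 9 of 10 were non-overlapping and lower, or 7 with chromosome medians removed. SERPINB1 (-1.17, adjusted p = 0.0485), an inhibitor of neutrophil proteases, and SERPINB13 (-1.28, adjusted p = 0.0467) passed limma, while 0 of the 10 passed voom. Matrix metalloproteases and their inhibitors had 3 non-overlapping higher and 4 lower members of 17 (32.5% and 16.4% over all genes). MMP13 (collagenase 3) read 33.4 and 30.02 RPKM in wild type against 4.95 and 2.25 RPKM in knockout (-3.06 ± 0.30, adjusted p = 0.0106). MMP7 (matrilysin) read 27.1, 16.1, 1.02 and 3.58 RPKM (-3.10, adjusted p = 0.0379). ADAMTS12, a secreted metalloprotease, passed in the other direction, at 0.367 and 0.460 RPKM in wild type against 3.51 and 4.50 RPKM in knockout (2.29 ± 0.27, adjusted p = 0.0179).

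Several other genes passed as lower. TNFRSF11B (osteoprotegerin, a decoy receptor for RANKL) had the smallest adjusted p of the genes named here, at 21.6 and 18.2 RPKM in wild type against 2.25 and 2.2 RPKM in knockout (-2.90 ± 0.18, adjusted p = 0.00466). IGFBP3, which binds insulin-like growth factors, read 945 and 841 RPKM in wild type against 186 and 200 RPKM in knockout (-2.21 ± 0.18, adjusted p = 0.00701). IGFL1 (-2.30, adjusted p = 0.0106), GABRP, a GABA receptor subunit (-2.28, adjusted p = 0.00946), DHRS9, a retinol dehydrogenase (-2.67, adjusted p = 0.0154), and MYEOV (-1.95, adjusted p = 0.0106) passed as well. The list of mucins and apical surface genes was also written with earlier results of these data known, so its counts only describe its members. It had a median of -1.09, which was -1.70 without knockout replicate 1. Of its 11 members 7 were non-overlapping and lower, 5 passed limma and 5 passed voom. The membrane mucins MUC4 (9.26, 8.87, 2.23 and 1.13 RPKM; -2.18, adjusted p = 0.02) and MUC16 (7.54, 8.18, 2.17 and 1.74 RPKM; -1.77, adjusted p = 0.0154) were among these. FST (follistatin, an activin antagonist; -1.50, adjusted p = 0.0357), EMP1 (-1.36, adjusted p = 0.0491) and the water channel AQP3 (-1.17, adjusted p = 0.0499), chosen after their values were seen, were abundant lower genes that passed.

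Antimicrobial and acute-phase genes were non-overlapping and lower in 10 of 12, with a median of -1.06, and 2 passed limma. Of these 12, 8 were non-overlapping and lower with chromosome medians removed. LCN2 (lipocalin 2, which withholds iron from bacteria) read 471 and 342 RPKM in wild type against 161 and 150 RPKM in knockout (-1.37 ± 0.21, adjusted p = 0.0454). S100A9, a subunit of calprotectin, read 10.2, 9.71, 3.51 and 4.29 RPKM (-1.25, adjusted p = 0.041), and it was listed at 0 in the unstimulated knockout library. PI3 (elafin), an elastase inhibitor, differed by -1.29 (adjusted p = 0.142). Of 11 S100 calcium-binding proteins 9 were non-overlapping and lower, with a median of -0.58, and most of this family lies on chromosome 1. With chromosome medians removed 6 were non-overlapping and lower and the median was -0.36. S100P, on chromosome 4, passed at 32.3 and 23.6 RPKM in wild type against 4.24 and 5.64 RPKM in knockout (-2.38 ± 0.22, adjusted p = 0.00946).

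**Figure D4:**
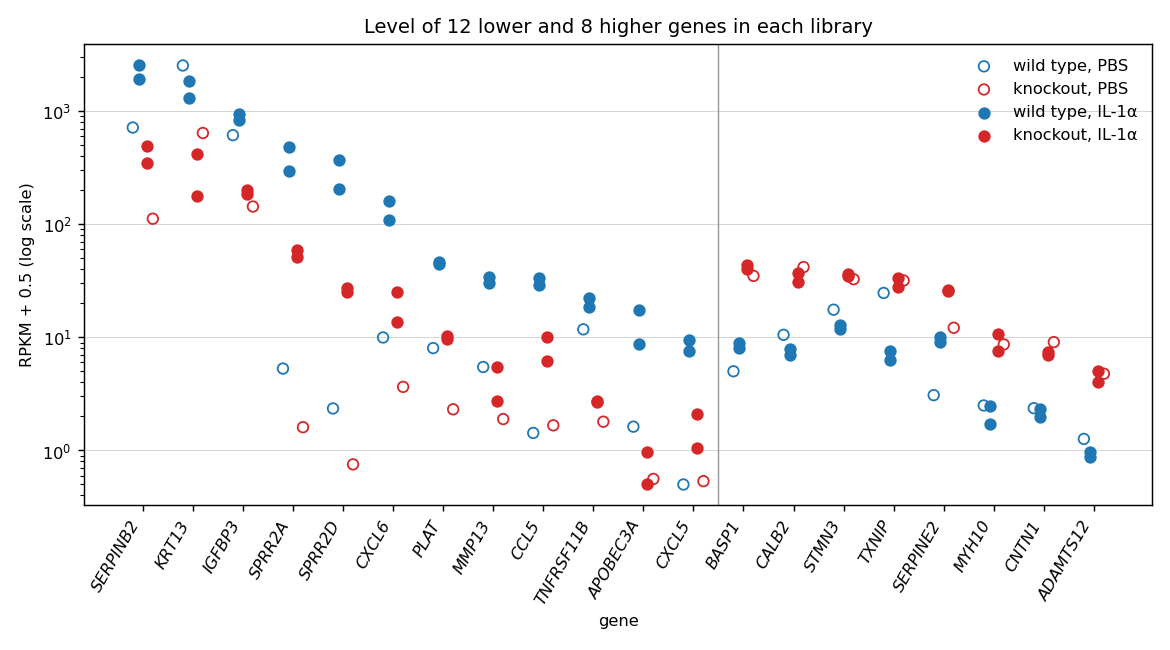
RPKM + 0.5 (vertical log axis) of 12 lower and 8 higher genes in each of the 6 libraries, blue for wild type and red for knockout, filled for IL-1α and open for PBS. For every gene shown the filled red points lie wholly below or wholly above the filled blue ones, and TXNIP's open blue point (24.2 RPKM) lies with the red ones.

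Some cytoskeletal and neuronal-type genes were higher in knockout, as the plot of levels by library shows. They belong to a list written with earlier results of these data known, so its counts only describe its members. Of 15 members of that list 9 were non-overlapping and higher and 3 lower, and 3 passed as higher and 1 as lower, with a median of 0.69 that was 0.34 without knockout replicate 1. BASP1, a membrane protein of growth cones (chromosome 5, 17216932 to 17276954, hg19), read 8.33 and 7.54 RPKM in wild type against 42.8 and 40.0 RPKM in knockout (2.31 ± 0.17, adjusted p = 0.00616). CALB2 (calretinin), a calcium buffer of neurons, read 7.42, 6.52, 36.8 and 30.1 RPKM (2.18 ± 0.18, adjusted p = 0.00701), and STMN3, a microtubule-destabilizing stathmin, 12.5, 11.4, 34.5 and 36.1 RPKM (1.53 ± 0.17, adjusted p = 0.0154). In each of these 3 genes the knockout pair was tight and the unstimulated knockout library was high too, at 34.5 RPKM for BASP1, 41.3 RPKM for CALB2 and 32.2 RPKM for STMN3. MARCKSL1, an actin-binding member of the list, passed as lower (166, 136, 46.0 and 29.9 RPKM; -2.01, adjusted p = 0.0179).

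Among other higher genes, MYH10, a non-muscle myosin, read 1.22 and 1.97 RPKM in wild type against 7.11 and 10.2 RPKM in knockout (2.12, adjusted p = 0.0206). CNTN1, a neural adhesion molecule (1.74, adjusted p = 0.0179), SEMA4D, a semaphorin (1.72, adjusted p = 0.0379), and LAMB1, a laminin chain (1.28, adjusted p = 0.0467), passed. ESM1, a secreted proteoglycan (2.63, adjusted p = 0.0154), STC1, a glycoprotein hormone (2.06, adjusted p = 0.0198), CDH4, a cadherin of neural tissue (1.78, adjusted p = 0.0304), and NES, an intermediate filament of neural progenitors (1.69, adjusted p = 0.0491), were chosen after their values were seen. The last 4 stayed at 4.82 RPKM or less in all 4 libraries.

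TXNIP, an α-arrestin that restrains glucose uptake and binds thioredoxin (chromosome 1, 145439347 to 145442644, hg19), had another pattern across the 6 libraries. Under IL-1α it read 5.78 and 7 RPKM in wild type against 27.2 and 33.3 RPKM in knockout (2.16 ± 0.19, adjusted p = 0.00848). Without stimulation wild type held 24.2 RPKM and knockout 31.3 RPKM, a difference of 0.37. The wild-type IL-1α libraries were thus the low ones, and the other 4 lay close together. The change of the genotype difference between conditions, 1.79, did not pass limma's interaction term (adjusted p = 0.966). Its relatives ARRDC4 (0.66, adjusted p = 0.172) and ARRDC3 (0.71, adjusted p = 0.315) had smaller differences.

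Cell-cycle genes had higher values as a group. Of 46 members 35 were non-overlapping and higher and 0 lower, with a median of 0.41 against 0.09 over all genes. None passed limma or voom, with 19 higher and 0 lower at an unadjusted p below 0.05. MCM6, a subunit of the replicative helicase, read 15.8 and 19.5 RPKM in wild type against 30.6 and 38.3 RPKM in knockout (0.94, adjusted p = 0.105). MCM2 (0.78, adjusted p = 0.156), the S-phase regulator E2F1 (0.76, adjusted p = 0.138) and the mitotic checkpoint kinase BUB1 (0.77, adjusted p = 0.162) had like values. Between 31 and 37 members were non-overlapping and higher under the other scalings, with 1 lower after median-of-ratios rescaling. In bulk RNA a change in the share of dividing cells and a change in RNA per cell cannot be told apart.

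The unstimulated pair shares no library with the IL-1α comparison, but it holds 1 library a genotype and allows no test. Of all genes 6.03% were 2-fold or more apart there, 2.28% higher and 3.75% lower in knockout. Of the 31 genes that passed as higher under IL-1α, 30 had the same sign without stimulation and 22 were 2-fold or more higher. The exception was MIR6824. Of the 47 lower genes, 44 had the same sign and 36 were 2-fold or more lower, and the exceptions were CCL5 (0.22), CXCL5 (0.10) and SPRR2F (listed at 0 in both). The unstimulated pair also carried a length trend, with a median of -0.56 in the shortest of the 10 length bins and 0.35 in the longest, and the lower genes were shorter than the higher ones (median 1800 and 3439 bases). The part of this trend in the shared signs was not tested. Across the 12603 genes the differences with and without IL-1α correlated at r = 0.553 and rho = 0.522, given as a description, since genes are not independent replicates.

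**Figure D5:**
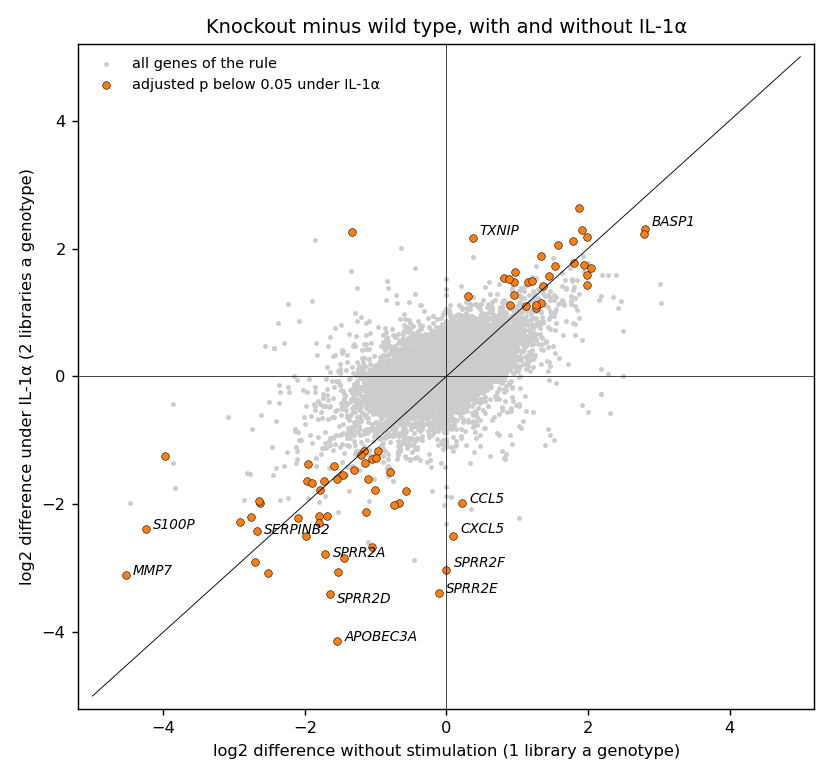
Log2 difference, knockout minus wild type, under IL-1α (vertical axis, 2 libraries a genotype) against the same without stimulation (horizontal axis, 1 library a genotype), 1 point a gene, with the line of equality. Most of the 78 orange genes lie along the line, while CCL5, CXCL5, SPRR2E and SPRR2F lie near 0 on the horizontal axis and at -1.98 or lower on the vertical one.

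Several lower genes had little difference without stimulation, and their transcripts were scarce there, as the plot of both conditions shows near its vertical axis. SPRR2E differed by -3.39 under IL-1α and by -0.10 without it, at 0.353 and 0.296 RPKM in the unstimulated libraries. CXCL5 was listed at 0 and 0.0350 RPKM in these, and CCL5 near 1 RPKM. S100P stood at the other end, with -4.24 without stimulation (105 and 5.09 RPKM) and -2.38 with IL-1α, as did MMP7 (-4.53 and -3.10). The genotype by stimulation term passed limma for 0 of 12925 genes, with 567 at an unadjusted p below 0.05, and it was tested with no other tool.

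Promoter letters were counted in the RefSeq windows of 9822 of the 12603 genes, on both strands. AP-1 letters (TGANTCA) were in 4.8% of all windows, in 19 of 48 windows (39.6%) of the lower genes with nearest libraries 2-fold apart, and in 3 of 38 (7.89%) of the corresponding higher genes. TATA letters (TATAAA) were in 5.42%, 33.3% and 7.89% of the same sets. ETS letters (CCGGAAGT) were in 9.37% of all windows, in 0 of the 48 lower ones and in 2.63% of the higher ones, and CACGTG was in 10.2%, 4.17% and 13.2%. The κB consensus was sought as GGGRNWYYCC, where R is A or G, W is A or T, Y is C or T and N is any base. It was in 6.6% of all windows, 12.5% of the lower and 15.8% of the higher set. The 48 windows include related SPRR2 genes that share sequence, the genes were chosen by their difference, and a match is a description of letters, not of binding.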

How the data were processed

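The deposited table holds RPKM for each gene and library, which the authors made with HOMER's analyzeRepeats on hg19, counting exons with 1 line per gene symbol, per the file headers. The submitters' processing notes also name bcl2fastq 2.20.0.422 and STAR. The strand setting of the counting, and the versions of STAR and HOMER, are not given in the sources used here, so overlapping transcripts of the other strand may add to a value.

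Values were taken as log2(RPKM + 0.5), where the 0.5 understates differences of low genes, and tested two-sided in limma 3.58.1 (R 4.3.3) with a mean-variance trend, 2 residual degrees of freedom and Benjamini-Hochberg adjustment over 12603 genes at 0.05. Medians, counts and promoter letters were computed in Python 3 with pandas and NumPy. The fit was tested on simulated reads that had the same extra spread for all genes and both genotypes. The real knockout pair was more spread than the wild-type pair, so that test does not bear on the calls here. Library depth is the read total under which values of 0.02 to 1 RPKM become whole counts within 0.1 read, which held for 98.7% to 99.8% of values in the 4 libraries; these rebuilt reads served voom.

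The genes compared, the 45 lists, the markers and the tests were chosen with earlier results of these data known. Named genes were the 12 most positive and 16 most negative that passed with a group mean of 5 RPKM or more, the 15 in each direction with the widest distance between nearest libraries, up to 4 non-overlapping members of a list (12 for chemokines, the IL-1 family, SPRR genes, keratins and the plasminogen system), the 2 most abundant members of lists with fewer, and the p38 genes. CD68, CDH5, H19, MIR6824, MITF, NAP1L2, PECR, MUC1 and genes marked so in the text were chosen after their values were seen. Some genes that the rule names are not reported here. Settings tried were pseudocounts, scalings, filters, variance models, a length and a chromosome correction, a replicate block and leaving out each library. Promoters came from RefSeq (GRCh38.p14) and 3′ untranslated regions from GENCODE 29 (GRCh38), by symbol.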

Additional observations from a re-analysis of the deposited data

Results flagged for a closer look

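For 4 of the genes named here both knockout libraries lay on one side of wild type under IL-1α while the unstimulated pair lay at least 1.5-fold apart the opposite way. CCL5, CXCL5, BIRC3 and ARRDC3 also had opposite signs there, by less than 1.5-fold. The interaction term did not pass limma for any of them. BCL2A1, an anti-apoptotic BCL2 relative, read 23.4 and 19.6 RPKM in wild type and 16.3 and 7.80 RPKM in knockout (-0.89), but 0 and 0.324 RPKM in the unstimulated wild-type and knockout libraries, a difference of 0.72 (interaction adjusted p = 0.966). MX1, an antiviral GTPase, read 14.8, 13.9, 8.12 and 4.04 RPKM under IL-1α (-1.25) and 1.34 and 2.29 RPKM without it, a difference of 0.61 (interaction adjusted p = 0.966). CDH5 (VE-cadherin), chosen after its values were seen, read 11.4, 11.8, 10.3 and 1.84 RPKM under IL-1α (-1.27) and 1.45 and 2.94 RPKM without it, a difference of 0.82 (interaction adjusted p = 0.966). The MIR6824 locus was listed at 0 in both wild-type IL-1α libraries and at 2.21 and 1.63 RPKM in knockout, which is 3 reads each, and at 1.93 and 0.461 RPKM without stimulation, a difference of -1.34 on 2 and 1 reads (interaction adjusted p = 0.763).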

How the results depend on the processing

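The counts moved with most choices. Higher and lower genes passing limma numbered 17 and 51 after median-of-ratios rescaling, 13 and 40 after quantile normalization, 16 and 38 with the length trend removed, 16 and 21 with no trend in the variance, 6 and 14 in a fit on all 6 libraries, and 0 and 0 with no filter on low values (2495 genes at an unadjusted p below 0.05). All 20 genes of the fit on 6 libraries were among the 78. The cause of these shifts was not tested. With a replicate block the counts were 97 and 136. Deviations of same-numbered libraries correlated at 0.007 across genes. The labels give these libraries only a number in common, and whether they shared a batch was not tested. Leaving out 1 library gave 0 to 14 higher and 0 to 30 lower genes passing limma, 5431 to 6268 higher and 3070 to 3778 lower non-overlapping genes, and 93 to 200 higher and 93 to 228 lower genes with nearest libraries 2-fold apart; in such fits the lone library is assumed to vary like the other group. Non-overlapping lower genes were 3219 with the length trend removed. Genes with nearest libraries 2-fold apart and higher were 37 after quantile normalization and 23 with a 5 RPKM filter. At 1.5-fold 283 genes were higher and 197 lower, and at 4-fold 4 and 14. Signs reversed in genes that did not pass: MAPK13 was -0.07 after median-of-ratios rescaling, -0.06 after quantile normalization and -0.14 with the length trend removed, KRT5 -0.02 after median-of-ratios rescaling, KRT6A 0.03 and PLAU 0.08 after quantile normalization, and TNFAIP3 0.09 with chromosome medians removed. With 1 library left out MAPK13 ran from -0.27 to 0.32, KRT5 from -0.09 to 0.25, KRT6A from -0.41 to 0.13, CXCL2 from -0.51 to 0.45, CCL2 from -4.31 to 0.15, CCL20 from -0.52 to 0.08, NFKBIA from -0.16 to 0.39, TNFAIP3 from -0.39 to 0.25, PLAU from -0.26 to 0.08, MITF from -0.06 to 0.44 and IL36G from -1.61 to 0.10. Of 2293 values of 136 genes under other settings, 1820 kept direction and side of the threshold, 394 lost the call, 55 gained one and 24 reversed.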

Other observations

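Genes of desmosomes and other epithelial junctions had lower values in knockout under IL-1α: 17 of 27 were non-overlapping and lower and 1 higher, with a median of -0.41. None passed limma or voom, with 6 lower and 0 higher members at an unadjusted p below 0.05. JUP (plakoglobin), which links cadherins to filaments, read 657 and 505 RPKM in wild type and 430 and 190 RPKM in knockout (-1.01, adjusted p = 0.258). DSG3, the desmosomal cadherin of basal cells, read 73.0, 79.6, 67.7 and 29.7 RPKM (-0.76, adjusted p = 0.344), and for both genes knockout replicate 2 was much the lower of its pair. Without knockout replicate 2 the list's median was -0.23, and with chromosome medians removed 13 members were non-overlapping and lower. ELF3, an epithelial transcription factor, differed by -1.20 (adjusted p = 0.09) and GRHL3, a factor of barrier formation, by -0.83 (adjusted p = 0.143).

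AU-rich letters in 3′ untranslated regions, the kind of element through which p38α signalling is known to affect mRNA decay, were counted in 11152 protein-coding genes. TTATTTATT was in 9.2% of all, in 5 of 57 (8.77%) lower genes with nearest libraries 2-fold apart and in 2 of 51 (3.92%) higher ones. TATTTAT was in 35.2%, 21.1% and 33.3% of the same sets. The median lengths of these regions were 1344 bases over all genes, 734 bases in the lower set and 1950 bases in the higher set, so the counts are over unequal lengths.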
